A study of Mus musculus with 8 samples.

Results

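The 10 genes described here, which distinguish brown fat from other tissues, were followed in brown adipose tissue (BAT) of mice given sonicated *Porphyromonas gingivalis* or saline. The genes were *Ucp1*, *Cidea*, *Dio2*, *Elovl3*, *Prdm16*, *Zic1*, *Lhx8*, *Otop1*, *Kcnk3* and *Bmp8b*, and every array probe carrying one of these names was taken, which gave 12 of 56605 probes and 10 of 37074 gene names. *Lhx8* and *Otop1* had more than 1 probe. Male C57BL/6J mice were 12 weeks old and received 100 μL intravenously, either saline (Co mice, n = 4) or the sonicated bacteria in saline (Pg mice, n = 4), at a dose that the labels print as 108 CFU, where an exponent was lost, since the methods of the study give it as a power of 10. The labels name no transgene, and all mice were of the same strain and age. BAT was collected 18 h later, and RNA of each sample was hybridized to its own single-colour array. The question was which genes differ in BAT between Co and Pg mice, and the values below describe the brown fat identity genes within that comparison.

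Brown adipocytes burn fuel to make heat. UCP1, in the inner mitochondrial membrane, lets protons flow back without making ATP, and noradrenaline from sympathetic nerves drives this through beta adrenergic receptors and cAMP. DIO2 converts thyroxine to the active thyroid hormone inside the cell, CIDEA is a lipid droplet protein, and ELOVL3 lengthens fatty acids. PRDM16 is a transcriptional regulator of brown fat fate, while ZIC1 and LHX8 are transcription factors that mark the classical interscapular depot. OTOP1 is a proton channel, KCNK3 is a potassium leak channel, and BMP8B is a secreted factor of the BMP family.

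Each probe is a strand of 60 bases lying in the transcript of its gene, and a level below is the signal of that strand. Shown are the probe of *Ucp1*, on which the reading of the defining brown fat gene rests, and the probe of *Lhx8* and of *Otop1* that was read on all arrays while the other probe of the same gene was not. Positions are in mm9, the build given in the array files. The *Ucp1* probe lies at chr8:85821788-85821847 on the plus strand, from base 1076 of its transcript. The *Lhx8* probe lies at chr3:153974609-153974668 on the minus strand, from base 1100, and the *Otop1* probe at chr5:38694026-38694085 on the plus strand, from base 1719. No base is set in capitals, because the whole strand hybridizes.
Ucp1: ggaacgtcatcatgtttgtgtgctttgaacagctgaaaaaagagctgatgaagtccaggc
Lhx8 probe 1: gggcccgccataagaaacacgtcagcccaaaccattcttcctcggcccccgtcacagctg
Otop1 probe 1: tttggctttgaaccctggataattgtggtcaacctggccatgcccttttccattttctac
The GC content was 45% for the *Ucp1* and *Otop1* probes and 61.7% for the *Lhx8* probe. The other *Lhx8* probe starts farther along the transcript, at base 1798, and the other *Otop1* probe at base 3028.

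The 8 arrays were on 1 slide and read in 1 scan. The Co arrays lay in one row of the slide and the Pg arrays in the other, so that slide row and group cannot be told apart. The scanner software counted 34761 to 35831 probes per Co array as well above background, and 31135 to 34066 per Pg array. Negative control spots had a 95th percentile of 52.2 to 53.9 intensity units among Co arrays and of 57.1 to 70.0 among Pg arrays. These ranges did not overlap, and their part in the values of dim probes was not tested.

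On none of the 8 arrays did *Ucp1* reach a signal well above background. The same held for *Elovl3* and *Bmp8b*, so that 3 of the 10 genes had no array with a signal the software accepted. The other *Lhx8* probe was well above background on 1 Co array and no Pg array, and the other *Otop1* probe on 3 Co arrays and no Pg array. *Kcnk3* was above background on 3 Co arrays and 1 Pg array. The remaining 6 genes, *Cidea*, *Dio2*, *Prdm16*, *Zic1*, *Lhx8* and *Otop1*, had a probe above background on all 8 arrays. No member spot was saturated.

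The brightness of the *Ucp1* spot was close to that of the glass around it. Mean spot signal divided by the median local background was 0.966, 0.949, 0.987 and 1.14 in Co mice 1 to 4 and 1.21, 1.12, 1.05 and 1.17 in Pg mice 1 to 4. The groups overlapped. Between 2.60% and 91.6% of the 308 negative control spots of an array were at least as bright as its *Ucp1* spot. For all 8 arrays the software had replaced the processed *Ucp1* value by a surrogate, a stand-in that it sets when a spot cannot be told from background. The surrogates ran from 2.95 to 3.34 intensity units for Co mice and from 4.34 to 6.73 for Pg mice, and as stand-ins they were not used for a difference between the groups.

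After normalization the *Ucp1* log2 values were 2.10, 2.16, 2.15 and 2.09 in Co mice and 2.26, 2.17, 2.18 and 2.15 in Pg mice. *Bmp8b* was also represented by surrogates alone, at log2 2.00 to 2.02 in Co mice and 1.97 to 2.00 in Pg mice, and between 21.4% and 77.9% of the negative control spots were at least as bright. *Elovl3*, the fatty acid elongase, had a ratio of spot to local background of 1.15 to 1.37 in Co mice and 1.27 to 1.51 in Pg mice, and its processed value was a surrogate in 2 Co and 3 Pg mice. Between 2.27% and 8.44% of the negative control spots were at least as bright as its spot. For these genes no fold change was given, since neither group had an array well above background.

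**Figure D1:**
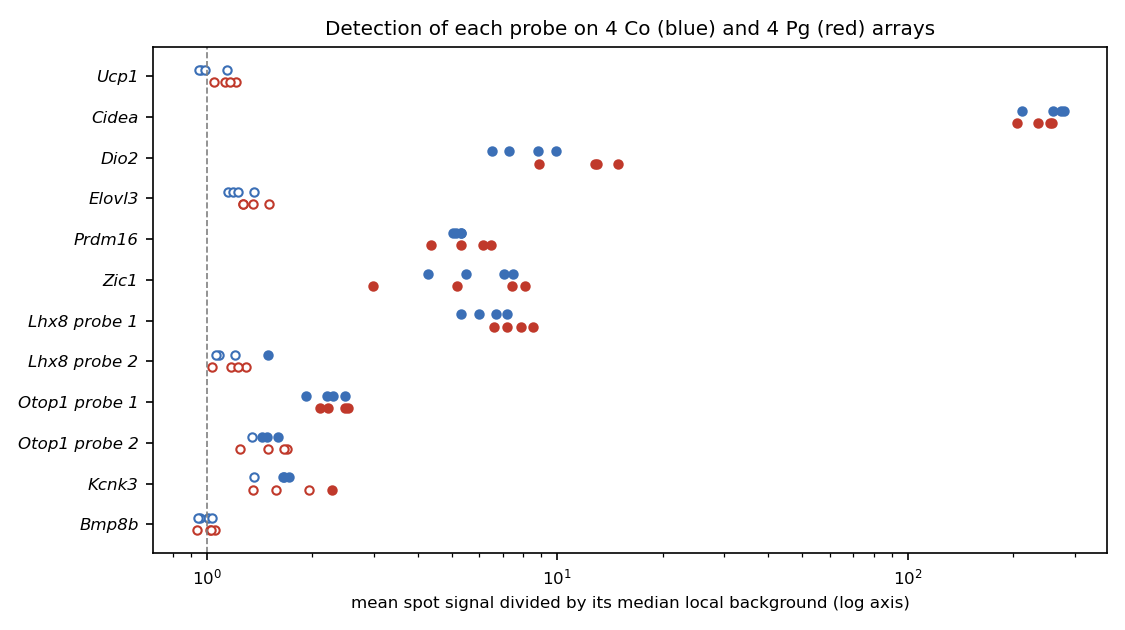
Mean spot signal divided by the median local background (log axis, no unit) for each of the 12 probes on the 4 Co and 4 Pg arrays, with a dashed line where the spot is as bright as its surroundings. *Cidea* lay between 204 and 279, *Dio2* between 6.52 and 14.9, and *Ucp1* between 0.949 and 1.21.

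The filter for testing was passed by 7 probes of 7 genes, since it asked for a signal well above background on at least 4 of the 8 arrays. *Kcnk3* passed mainly through the Co arrays. Differences were tested with limma on log2 values, with q the p-value after Benjamini-Hochberg adjustment over all 33820 probes tested, and a probe was called when q was under 0.1 and the fold change above 1.5. BAT was measured as whole tissue, so that fewer cells of a type and less RNA per cell cannot be told apart. The labels number the samples of a group without giving litter or cage, and p-values measure only the spread among the 4 samples of each group.

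None of the 7 tested probes was called between Pg and Co mice. Over all probes tested, 546 were called (1.61%), with 106 higher in Pg mice (0.313%) and 440 lower (1.3%), so that the share over all probes corresponds to fewer than 1 call among 7. No member had a q under 0.1 in limma, against 7.82% of all probes, and 2 of the 7, *Dio2* and *Lhx8*, had an unadjusted p under 0.05, against 22.8%. The groups overlapped for each of the 7 tested probes, while they lay apart for 15.8% of all probes tested. Positive differences were 3 of the 7, against 42.3% of all, and the median difference was -0.079 on the log2 scale, against -0.040 over all probes. The split of all calls differed between processing settings. It was 66 higher and 28 lower when the mean signal was corrected by normexp, 75 and 33 when the median signal was taken without subtracting background, 137 and 146 after scaling each array by its 75th percentile, 20 and 7 without normalization, and 60 and 46 with the normalized values the authors deposited.

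The metabolic members were *Cidea* and *Dio2*. The log2 values of *Cidea* were 13.45, 13.31, 13.51 and 13.48 in Co mice and 13.22, 13.16, 13.44 and 13.52 in Pg mice. The highest and the lowest of the 8 values were both from Pg mice. The fold change, Pg over Co, was 0.931 (95% confidence interval 0.799 to 1.08, q = 0.556 in limma).

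*Dio2* had the smallest q of the 7. Its log2 values were 8.07, 8.06, 8.58 and 8.43 in Co mice and 8.90, 9.17, 8.41 and 9.01 in Pg mice. All Pg mice but Pg mouse 3 lay above every Co mouse, while Pg mouse 3 lay below Co mice 3 and 4. The fold change was 1.502 (95% confidence interval 1.11 to 2.03), with a limma p of 0.0151 and a q of 0.129, and an exact permutation test of the group labels gave p = 0.0857, two-sided, where the smallest value the design allows is 0.0286. *Dio2* therefore did not pass the threshold over all probes. It was called in 2 of the 18 alternative fits. Without Pg mouse 3 the log2 difference was 0.74 with q = 0.0700, and with a variance trend in the fit q was 0.0865. It also had a q under 0.1, but a fold change below 1.5, with normexp (q = 0.0847) and without background subtraction (q = 0.0821).

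Among the transcription regulators, *Prdm16* had nearly equal group means. Its log2 values were 7.39, 7.55, 7.51 and 7.54 in Co mice and 7.69, 7.45, 7.78 and 7.15 in Pg mice. The fold change was 1.01 (95% confidence interval 0.814 to 1.26, q = 0.952). The standard deviation was 0.072 among Co mice and 0.28 among Pg mice. The Pg values lay on both sides of the Co values.

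*Zic1* log2 values were 8.03, 7.36, 7.60 and 8.10 in Co mice and 8.09, 8.02, 6.20 and 7.43 in Pg mice. Pg mouse 3 was lower than every other mouse, and the fold change of 0.792 had an interval from 0.408 to 1.54 (q = 0.662). Without that array the log2 difference was 0.074 in place of -0.34.

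*Lhx8* was measured by its first probe, with log2 values of 8.02, 7.73, 7.71 and 7.99 in Co mice and 8.15, 8.07, 7.99 and 8.48 in Pg mice. All Pg values but that of Pg mouse 3 exceeded every Co value. The fold change was 1.24 (95% confidence interval 1.01 to 1.51), with a limma p of 0.0423, a q of 0.202 and an exact permutation p of 0.0857. Of the 18 alternatives, q was under 0.1 in none, and the log2 difference ranged from 0.20 to 0.38. The second *Lhx8* probe gave log2 values of 1.94, 4.27, 2.27 and 1.96 in Co mice and 1.96, 1.97, 1.97 and 1.96 in Pg mice, of which 2 Co values and all 4 Pg values were surrogates.

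**Figure D2:**
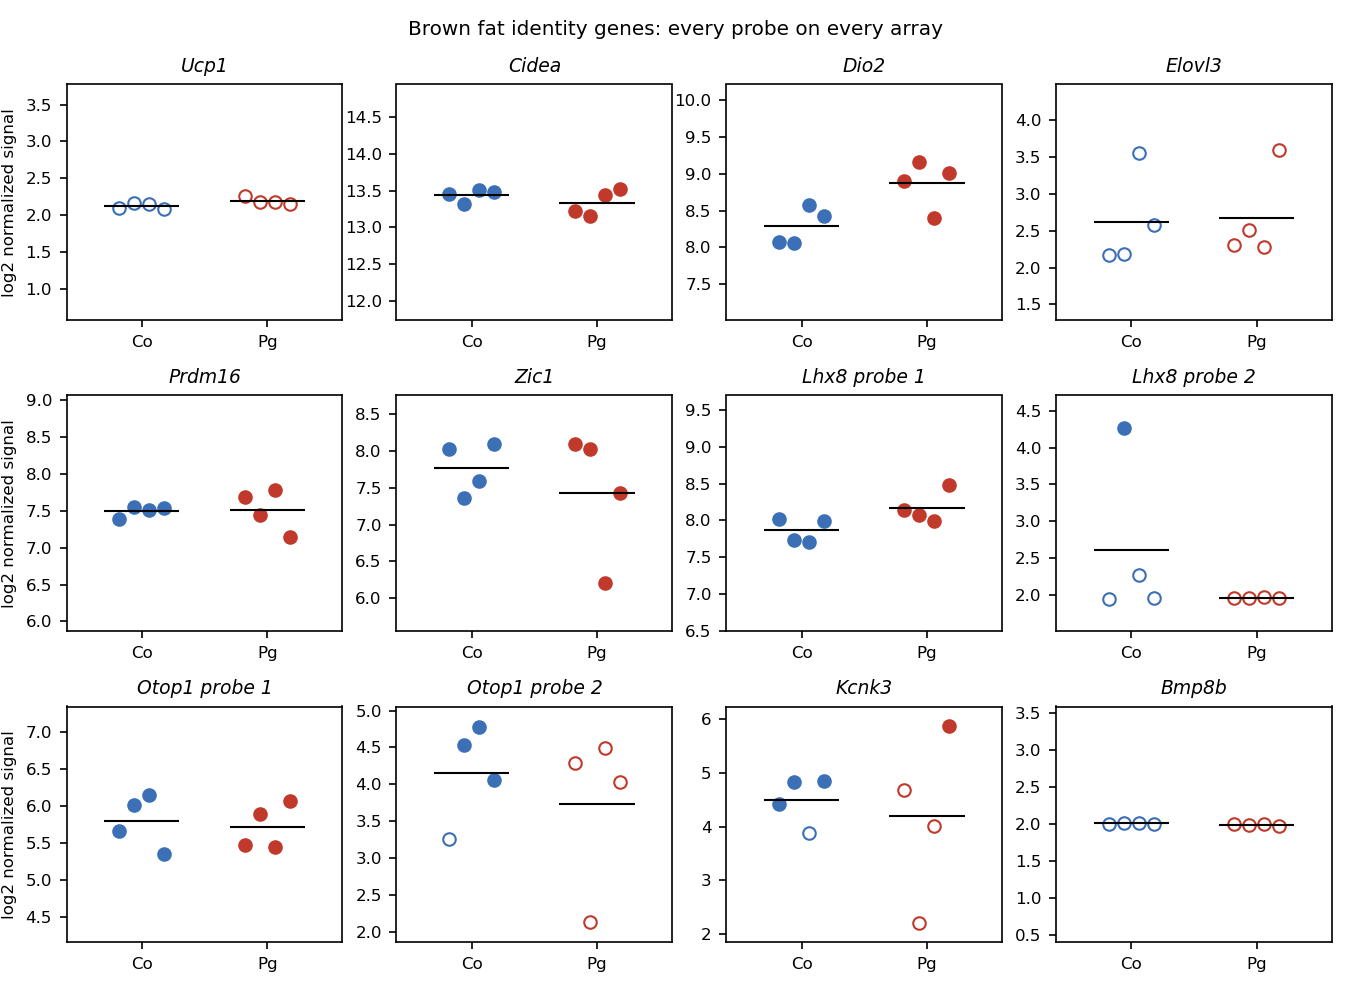
Normalized log2 level of each of the 12 probes on every array, with replicates 1 to 4 from left to right, filled points for arrays on which the probe was well above background, open points for those on which it was not, and a line at each group mean. *Ucp1* and *Bmp8b* show open points only, at log2 1.97 to 2.26, and *Dio2* shows filled points at 8.06 to 9.17.

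The ion channels among the members were *Otop1* and *Kcnk3*. *Otop1* log2 values from the first probe were 5.67, 6.02, 6.16 and 5.35 in Co mice and 5.47, 5.90, 5.44 and 6.07 in Pg mice. The groups ranged over nearly the same values, and the fold change was 0.947 (95% confidence interval 0.671 to 1.34, q = 0.855). The second probe read 3.26, 4.54, 4.77 and 4.05 in Co mice and 4.29, 2.14, 4.50 and 4.04 in Pg mice. It was not tested.

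*Kcnk3* log2 values were 4.41, 4.83, 3.89 and 4.85 in Co mice and 4.68, 2.20, 4.00 and 5.87 in Pg mice. Pg mice held both the highest and the lowest value, and the lowest was a surrogate. Only 1 of the 4 Pg values was well above background, so that the Pg mean rests largely on values that were not. With that limit, the fold change of 0.808 had an interval from 0.263 to 2.48 (q = 0.823), and without Pg mouse 2 the log2 difference was 0.35 in place of -0.31.

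**Figure D3:**
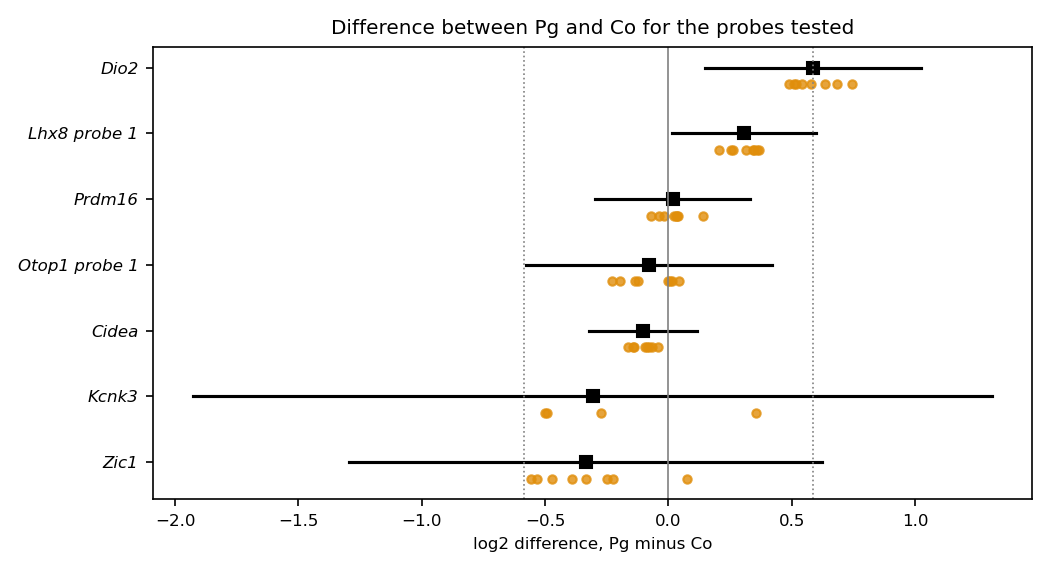
Log2 difference, Pg minus Co, of the 7 tested probes (squares) with 95% confidence intervals (bars) from limma, the differences with 1 array left out in turn (orange points), and dotted lines at a fold change of 1.5. The *Dio2* interval, 0.15 to 1.02, and the *Lhx8* interval, 0.01 to 0.60, exclude 0, and the interval of *Kcnk3* spans -1.93 to 1.31.

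The members were also set beside general tissue markers. Each of the 7 probes was taken relative to the mean log2 level of 20 genes common to all adipocytes and of 19 skeletal muscle genes, which gave 14 differences. *Dio2* relative to the adipocyte genes differed by 0.59 (exact permutation p = 0.143, 0.6 after adjustment over the 14). Relative to the muscle genes it differed by 0.73 (exact permutation p = 0.0571, 0.6 after adjustment). *Cidea* relative to the adipocyte genes differed by -0.10 (exact permutation p = 0.457, 0.943 after adjustment). The smallest adjusted p of the 14 was 0.6.

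The label of the tissue was checked against its markers. Of the adipocyte genes, 20 of 20 were above background on all 8 arrays, and the fatty acid carrier *Fabp4* had log2 values of 16.28 ± 0.10 in Co mice and 16.35 ± 0.17 in Pg mice (SD, n = 4). Levels differed widely within the list, with Co means of 10.29 for *Adipoq*, 10.65 for *Cidec* and 6.89 for *Plin1*. The summed normalized intensity of the adipocyte genes was 647356 to 699919 in Co mice and 626172 to 649337 in Pg mice. Skeletal muscle genes were above background on all 8 arrays in 19 of 20 cases, with a summed intensity of 3514174 to 3744967 in Co mice and 3424468 to 3672200 in Pg mice. The groups overlapped for both sums. Quantile normalization sets the values of the brightest probes nearly equal across arrays, and the muscle sum rests mostly on such probes. Its overlap therefore says little about muscle content. The brown fat genes *Ucp1*, *Elovl3* and *Bmp8b* and the fatty acid transporter *Slc27a2* were above background on no array. The other brown fat genes were largely measured. Above background on all 8 arrays were 6 of the 10 members, 18 of 18 brown fat transcription factors and cofactors and 19 of 20 effector genes. Detection alone does not tell which tissue these signals came from, and whether muscle expresses the same genes was not tested. Of the 19 muscle genes tested, 3 differences were positive and 16 negative, with a median of -0.094 and none called. The calcium pump gene *Atp2a1*, selected after its value was seen, differed by -0.44 (q = 0.0411), with groups that did not overlap, and q stayed under 0.1 in 15 of 18 alternatives, all but those without Co mouse 3, without normalization (q = 0.128) and with the replicate number as a block (q = 0.122). The name of the tissue was kept as the labels give it, and the share of brown fat, white fat and muscle in it was not tested. The muscle fibre gene *Myh4* varied widely, from 13.38 to 16.97 in Co mice and 11.38 to 17.07 in Pg mice, with a log2 difference of -0.77 (q = 0.772, 1 of its other probes in the opposite direction), while *Acta1* differed by -0.024 (q = 0.825), *Ckm* by -0.15 (q = 0.186) and *Mylpf* by -0.0038 (q = 0.982, 1 other probe in the opposite direction).

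**Figure D4:**
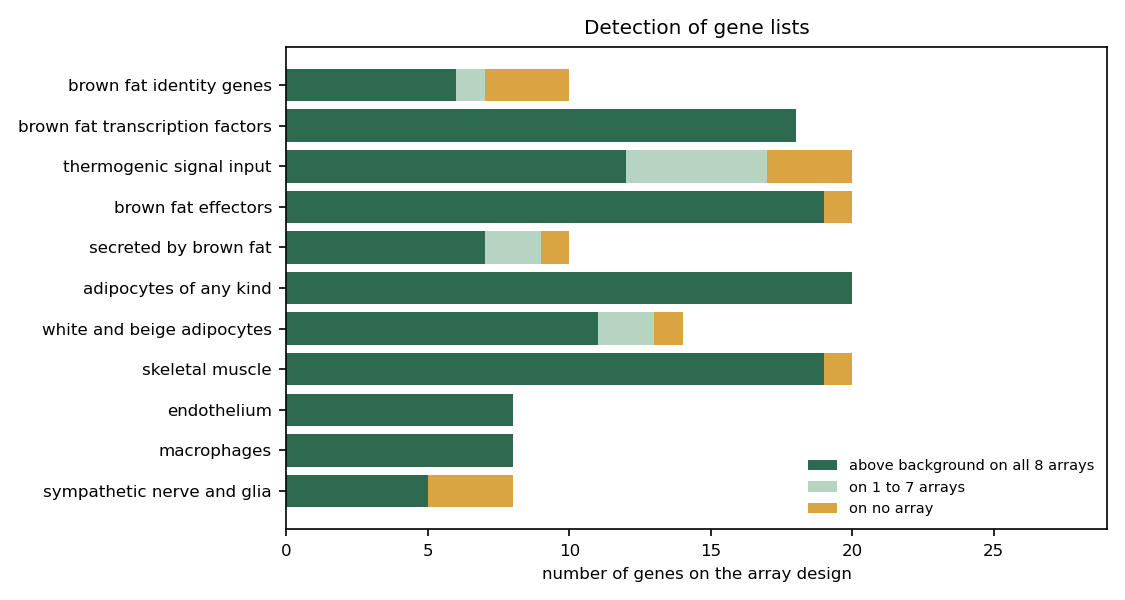
Number of genes of each list with a probe above background on all 8 arrays, on 1 to 7 arrays and on no array, as stacked bars. The adipocyte list was above background throughout, while 3 of the 10 brown fat identity genes were above background on no array.

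The other genes of the brown fat pathway were read from lists, with each gene represented by its tested probe of highest mean level. Of 18 transcription factors and cofactors of brown fat, all were above background on all 8 arrays, 9 had a positive and 9 a negative difference, none was called, and the median was -0.0070. The coactivator *Ppargc1a* differed by -0.36 (q = 0.431), the adipocyte master regulator *Pparg* by 0.23 (q = 0.158) and *Ebf2*, an early factor of brown fat, by 0.054 (q = 0.779). Those with a q under 0.1, selected after their values were seen, were *Ebf3* (0.35, q = 0.0586), *Nrip1* (-0.36, q = 0.0702) and *Tbx15* (-0.32, q = 0.0743). Over the 18 alternatives, q stayed under 0.1 in 9 for *Ebf3*, 8 for *Nrip1* and 9 for *Tbx15*, and with an array left out in 1, 1 and 2 of the 8 fits. A second probe of *Tbx15*, a T-box factor, was called, with log2 values of 5.85 ± 0.16 in the Co group and 5.23 ± 0.17 in the Pg group (SD, n = 4), a fold change of 0.647 and q = 0.0507. That call was lost when Co mouse 2 or 3 or Pg mouse 1 was left out, and with 5 of the other alternatives.

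The receptors and signalling genes through which nerves and hormones reach the brown adipocyte comprised 20 genes. Of these, 16 were tested, with 7 positive and 9 negative differences and none called. The beta adrenergic receptor *Adrb3*, above background in 3 Co and 2 Pg mice, differed by 0.42 (q = 0.693), and *Adrb1*, *Klb* and *Ffar4* were above background on no array. Effector genes of mitochondria and fuel use were tested in 19 of 20 cases, 8 positive and 11 negative, none called and none with a q under 0.1. *Cox7a1* differed by 0.16 (q = 0.141) and *Cox8b* by 0.11 (q = 0.352), both subunits of cytochrome c oxidase.

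The secreted factors comprised 10 genes, of which 7 were tested, 2 positive and 5 negative. The neuregulin *Nrg4* differed by -0.36 (q = 0.195), with 1 other probe of the gene in the opposite direction, and *Fgf21* was above background on no array. Among 3 probes of the growth factor *Igf1*, 1 was called, with log2 values of 4.81 ± 0.18 in the Co group and 5.60 ± 0.26 in the Pg group (SD, n = 4), a fold change of 1.73 and q = 0.0517, while the other 2 differed by -0.028 (q = 0.887) and 0.15 (q = 0.662). The call was lost without Co mouse 2 or 3 and with 5 of the other alternatives. Of the adipocyte genes, 11 differences were positive and 9 negative, with a median of 0.0040 and none called. *Adipoq*, which encodes adiponectin, differed by 0.0052 (q = 0.995), the lipid droplet gene *Cidec* by 0.0076 (q = 0.995), *Plin1* by 0.35 (q = 0.640, 1 other probe in the opposite direction) and *Fabp4* by 0.063 (q = 0.730).

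Markers of other cell types were read as well. Of 8 endothelial genes, 6 differences were positive and 2 negative, and none was called. The negative ones were *Pecam1* (-0.20, q = 0.151), with groups that did not overlap, and *Tek* (-0.14, q = 0.441). *Kdr* (0.57, q = 0.0573) and *Egfl7* (0.42, q = 0.0419) had a q under 0.1. The endothelial genes named here were selected after their values were seen. Over the 18 alternatives, q stayed under 0.1 in 9 for *Kdr* and in 15 for *Egfl7*, where it was lost without Co mouse 3, without normalization (q = 0.122) and with the replicate number as a block (q = 0.122). The 8 genes' summed intensity was 24875 to 29442 in Co mice and 33612 to 35376 in Pg mice, and the groups did not overlap. *Egfl7*, the brightest of the 8 with mean log2 values of 13.96 in Co and 14.38 in Pg mice, weighs most in this sum. The mean log2 level of the 8 genes, in which each has the same weight, was 10.46 to 10.77 in Co mice and 10.70 to 10.79 in Pg mice. By this measure the groups overlapped. Of 8 macrophage genes, 7 differences were positive, with a median of 0.30, none called, and a summed intensity of 8601 to 14700.4 in Co mice and 8514 to 27729 in Pg mice. The part of endothelial cells and macrophages in the member values was not tested.

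Genes with a pattern like that of the 6 members read on all 8 arrays were found by Pearson's r over the 8 arrays among 29224 probes above background on all of them. The points share the arrays, and r is given as a description. For *Cidea* the nearest were *Dcaf17* (0.976), *Fut8* (0.963) and *Tns2* (0.960). For *Dio2* they were *Adgrd1* (0.988), a probe named by its genomic position (0.985) and *Tradd* (0.983). *Prdm16* was nearest to *Rad17* (0.992), *Tnks* (0.966) and *Kcnh1* (0.947). *Zic1* was nearest to *Ipo4* (0.969), *Nms* (0.953) and a probe named by position (0.928). *Lhx8* was nearest to a transcript named by its Ensembl identifier (0.961), *Fam76b* (0.957) and *Atp9b* (0.955), and *Otop1* to *Tox4* (0.945), *Faim* (0.944) and *Fibp* (0.922). For the 6 members compared in this way, no other member was among the nearest 3.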

How the data were processed

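RNA of 8 samples of BAT was hybridized to single-colour Agilent arrays, which the authors scanned and read with Feature Extraction 11.0.1.1 per the file headers. The deposited files give the intensity of each spot with its background and flags. The authors also deposited a table of normalized log2 values, with their own comparisons, which hold fold changes and p-values and were not used. Spots of the same probe were averaged by processed intensity, leaving out outlier and control spots, quantile-normalized across arrays, set to at least 1 and taken to log2. Probes well above background on at least 4 of 8 arrays were tested with limma 3.58.1 in R 4.3.3 (lmFit and eBayes, two-sided, Benjamini-Hochberg). The fit was tested on simulated data. Gene names are those of the array files, updated by accession for 32994 probes. The members and lists were chosen with earlier results of these data known. By rule the text names all members, listed genes with a called probe, 16 listed genes and the 3 genes most alike to each member above background on all 8 arrays. All other genes, namely *Th*, *Pecam1*, *Tek* and those with a q under 0.1 or above background on no array, were selected after their values were seen. Depth does not apply, and 4 arrays a group limit the precision. The alternatives covered background correction, scaling, filters, replicate number, variance model, left-out arrays and the authors' log2 values. Results of some listed genes are not reported here.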

Additional observations from a re-analysis of the deposited data

How the results depend on the processing

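Over all probes 546 were called. The count was 94 with normexp on the mean signal, 108 with the median signal and no background subtraction, 283 with scaling to the 75th percentile, 27 without normalization, 318 when probes had to be above background on all 8 arrays, 106 with the log2 values the authors deposited, and 2 to 692 with 1 array left out (2 without Co mouse 3, 93 without Co mouse 2 and 692 without Pg mouse 3). With the replicate number as a block the count was 0 in limma, with 7392 probes at an unadjusted p under 0.05. Whether the numbers pair the samples cannot be told from these values. Same-numbered arrays correlated at -0.068 to 0.18 and arrays of unlike number at -0.15 to 0.13, and these ranges overlap. The replicate number was also the slide column of the array, so that the block holds both. Called members numbered 1 with a variance trend and 0 to 1 with 1 array left out, in each case *Dio2*. Members with a q under 0.1 numbered 1 with normexp, 1 without background subtraction, 1 with a variance trend and 0 to 1 with 1 array left out. Members whose groups lay apart numbered 1 without the filter on dim probes, namely *Bmp8b*, whose values were all surrogates, and 0 to 2 with 1 array left out. Over all probes the groups lay apart for 15.3% without the filter and for 19.4% to 23.0% with 1 array left out. Positive differences numbered 5 of 12 without the filter, which brings in *Ucp1* and *Elovl3*, and 2 to 4 of the 6 or 7 tested with 1 array left out. Reversed differences were 0.040 (normexp), 0.082 (no background subtraction) and 0.046 (the deposited log2 values) for *Kcnk3*, which ranged from -0.50 to 0.35 with 1 array left out and could be tested in 12 of 18 alternatives. *Prdm16* was -0.032 without background subtraction, -0.048 with the deposited log2 values and -0.071 to 0.14 with 1 array left out. *Otop1* was 0.048 with the 75th percentile, 0.098 without normalization and -0.23 to 0.041 with 1 array left out, and *Zic1* was -0.56 to 0.074. *Cidea*, from -0.16 to -0.044, *Dio2*, from 0.49 to 0.74, and *Lhx8*, from 0.20 to 0.38, kept their direction in all 18 alternatives. With the replicate block *Dio2* had q = 0.230. The cause of these changes was not tested. *Ucp1*, *Elovl3* and *Bmp8b* were limited by signal over background. For genes outside the members, the alternatives were chosen after seeing the data.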

Other observations

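Genes that tell white or beige fat from brown fat comprised 14 genes, of which 12 were tested. Positive differences numbered 5 and negative ones 7, and none was called. The beige marker *Cited1* differed by 0.51 (q = 0.0969, selected after its value was seen), a q under 0.1 that was lost with each array left out in turn and held in 5 of 18 alternatives in all. *Tnfrsf9*, another beige marker, was above background on no array. Of 8 genes of sympathetic nerves and Schwann cells, *Dbh*, *Npy* and *Slc6a2*, genes of sympathetic neurons, were above background on no array. The other 5, among them *Th*, also a gene of sympathetic neurons, were above background on all 8 arrays. They had 1 positive and 4 negative differences, a median of -0.11 and none called. *Th* differed by -0.14 (q = 0.219), with groups that did not overlap.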
